A study of Homo sapiens with 6 samples.

Results

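DPH6, the enzyme that completes diphthamide, was examined together with the other enzymes that build this modification, the elongation factor that carries it and the kinase of that factor. The 9 genes, of 60668 in the deposited table, were DPH1, DPH2, DPH3, DNAJC24, DPH5, DPH7, DPH6, EEF2 and EEF2K, and each matched 1 row by its Ensembl identifier. DPH6 was selected on its normalized counts in these libraries, where it fell most among genes of at least 10 CPM whose conditions did not overlap, so its difference is described here without a test. The other 8 genes were selected for what they do. MiaPaCa-2, an established human pancreatic ductal adenocarcinoma line and the only line in these libraries, was cultured for 48 h in low glucose (2.5 mM, 3 libraries) or under control conditions (25 mM, 3 libraries). No further agent or genetic change is given for either group.

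Diphthamide is a modified histidine found only in EEF2, the GTPase that moves the ribosome along the mRNA by a codon after each peptide bond. DPH1 and DPH2, helped by the electron carrier DPH3 and the J-domain protein DNAJC24 (also called DPH4), attach a side chain taken from S-adenosylmethionine to the histidine. DPH5 then methylates the side chain, DPH7 removes a methyl group, and DPH6 uses ATP and ammonium to amidate the end of the chain. Diphtheria toxin and Pseudomonas exotoxin A inactivate EEF2 by adding ADP-ribose to the finished residue. EEF2K phosphorylates EEF2 at a different residue and slows elongation.

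The modified residue is the amino acid of codon 715 of the 858 codons in the reference transcript of EEF2 (ENST00000309311.7, hg38), in coding exon sequence of exon 13 of 15. The stretch around it is shown because it holds the residue on which diphthamide is built. The sequence is chr19:3977503-3977565 on the minus strand, and the capitals mark the histidine codon.
EEF2 codon 715: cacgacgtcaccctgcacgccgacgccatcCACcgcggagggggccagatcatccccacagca

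The depth was 9741183 to 10190154 reads on genes in control and 10595408 to 13733477 in low glucose. The labels name the columns of replicate 1 (10841656 reads) and replicate 2 (10595408 reads) of low glucose. Since the remaining 4 were placed by the run of their names in the table, libraries are named here by depth. The control library of 10126218 reads stood apart from the other controls (chi-square per gene of 8.74 and 18.9 against them, and 4.63 between them), and the low-glucose libraries differed less (1.90 to 2.89). Mitochondrially encoded genes took 2.47 to 3.82% of a control library and 4.65 to 5.12% of a low-glucose library. VIM, KRT8, KRT18 and KRT19 were abundant, and markers of acinar (PRSS1, CPA1, CELA3A), endocrine (INS, GCG) and immune (PTPRC) cells were listed at 0 in every library. The epithelial markers KRT7, EPCAM and CDH1 were nearly absent, with at most 12, 1 and 3 reads in any library. Of the fibroblast and endothelial markers, DCN was at 0, COL1A1 had at most 14 reads and PECAM1 at most 3.

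DPH6 (ENSG00000134146.12) spans 35217345 to 35546193 of chromosome 15 (hg38, minus strand), and its reference transcript has 9 exons spread over 328.8 kb. In control its normalized count, the reads on the gene divided by the size factor of the library, was 424 in the library of 9741183 reads, 349 in that of 10126218 and 453 in that of 10190154. In low glucose it was 108 in the library of 10595408 reads, 93.3 in that of 10841656 and 104 in that of 13733477. All 3 low-glucose libraries were far below all 3 controls, where the selection already required that the conditions not overlap. The values in low glucose were close to each other. The mean was 408 ± 53.5 in control and 102 ± 7.43 in low glucose (SD, n = 3), a 4.02-fold lower level and a log2 fold change of -1.99 on the scale of log2(value + 1). The difference stayed between -2.10 and -1.91 under all 15 other settings, among them each library left out in turn. Those that changed only the filter or the variance trend could not move it. The reads behind these values numbered 313 to 423 in a control library and 97 to 137 after low glucose. In bulk RNA, fewer cells expressing a gene and less of its RNA per cell cannot be told apart.

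DPH6 had the largest fall of the 6001 genes with at least 10 CPM on average and no overlap between the conditions, which is how it was selected. The next in that order were BRINP3 (log2 fold change of -1.95), ENSG00000242396 (-1.90), FAM111B (-1.78) and CAVIN2-AS1 (-1.74). Without a limit on the level, 30 of the genes tested fell more than DPH6.

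Of the other 8 genes, 1 passed the test, DNAJC24, which was higher in low glucose, and 0 were lower in limma, edgeR or DESeq2 (1 lower, DPH1, at an unadjusted limma p under 0.05). The test was limma across all 21101 genes with a mean normalized count of at least 1, two-sided, with Benjamini-Hochberg adjustment and a threshold of 0.05. Of all genes tested, 30.9% passed, 14.7% higher and 16.2% lower, so the share among the 8 was not above that of the table. The conditions did not overlap for 1 of the 8 genes, again DNAJC24, and for 43.9% of all genes tested. The median log2 fold change was 0.16 over the 8 genes and 0.05 over all genes tested.

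**Figure D1:**
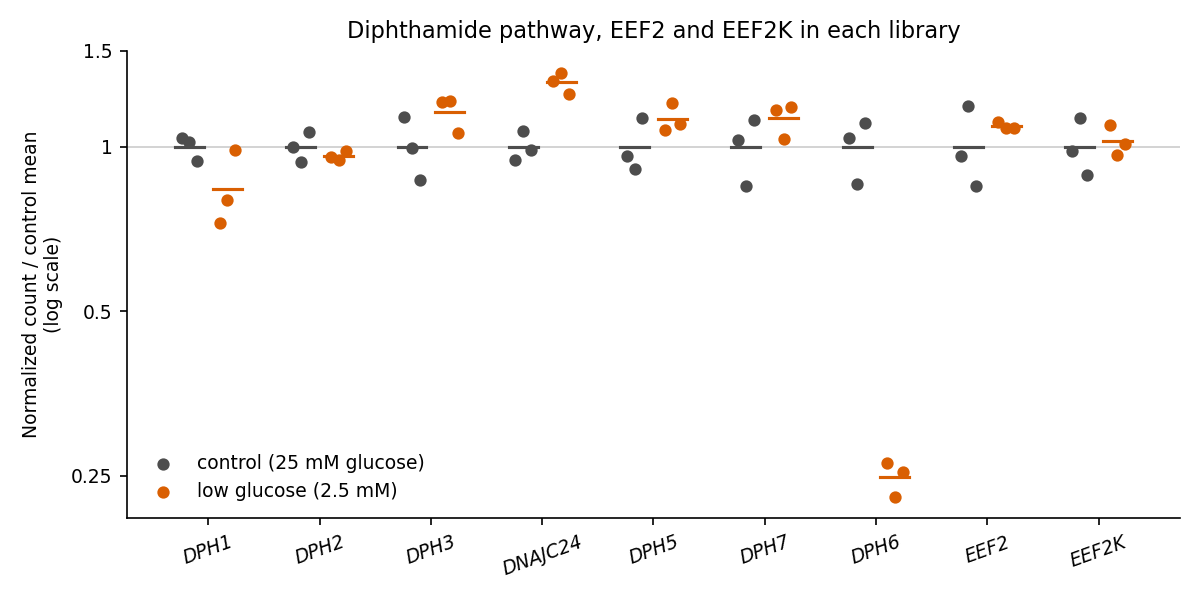
Normalized count of each gene in each library relative to its control mean (n = 3), on a log scale. Points are libraries and bars are means of 3. DPH6 sits near 0.25 in all 3 low-glucose libraries, and the other 8 genes stay between 0.5 and 1.5 in every library.

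Among the genes of the initial step, DPH1 and DPH2 form the iron-sulfur enzyme that builds the side chain. DPH1 (chromosome 17, 2030137 to 2043898) had a normalized count of 313, 308 and 284 in the control libraries of 9741183, 10126218 and 10190154 reads, and of 218, 241 and 297 in the low-glucose libraries of 10595408, 10841656 and 13733477 reads. A pair of low-glucose libraries was below every control, and the deepest was within the control range. The log2 fold change was -0.27 (95% interval -0.52 to -0.01, limma adjusted p = 0.107). Without the library of 13733477 reads it was -0.39 and passed the test (limma adjusted p = 0.0386). DPH1 shares exon sequence on the other strand with ENSG00000287553 (980 bp, 90 to 155 reads) and ENSG00000262533 (422 bp, 224 to 320 reads), neither of which passed the test. OVCA2, which lies within DPH1 on the same strand with 1031 bp of shared exon, is listed at 0 reads in all libraries.

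DPH2 (chromosome 1, 43970000 to 43973369) was the most abundant of the 7 enzymes. Its normalized count was 789, 741 and 843 in the control libraries and 759, 749 and 777 in the low-glucose libraries, in the same order of depth. The low-glucose values all fell inside the control range. The log2 fold change was -0.05 (95% interval -0.23 to 0.12, limma adjusted p = 0.668), and it turned to 0.03 with scaling by library size and to 0.07 with quantile normalization.

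DPH3 (chromosome 3, 16257061 to 16264969), the electron donor of the initial step, also serves the Elongator complex. Its normalized count was 228, 200 and 174 in control and 242, 243 and 212 in low glucose, in order of depth. The ranges overlapped, and the log2 fold change was 0.22 (95% interval -0.05 to 0.48, limma adjusted p = 0.200). Its processed copy DPH3P1 had 17 to 46 reads per library, and whether reads shared with it were divided or dropped in counting is not stated for this table.

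DNAJC24 (ENSG00000170946.15, chromosome 11, 31369840 to 31432835), the J-domain partner of the initial step, had a normalized count of 132, 149 and 138 in control and of 185, 191 and 175 in low glucose, in order of depth. All low-glucose libraries were above all controls. The mean was 140 ± 8.69 in control and 184 ± 8.24 in low glucose (SD, n = 3), 1.31-fold higher, or 0.39 on the log2 scale (95% interval 0.14 to 0.65, limma adjusted p = 0.0219). The direction held under all 15 other settings and the size ran from 0.32 to 0.47, but the adjusted p ran from 0.00735 to 0.0952. Settings that changed only the filter or the variance trend could alter the adjusted p but not the direction or size. In limma the call was lost without the library of 10595408 reads (adjusted p = 0.0793), 10841656 reads (0.0952), 13733477 reads (0.0503) or 9741183 reads (0.0743), and after quantile normalization (0.0578). DESeq2 gave an adjusted p of 0.0622. IMMP1L, which shares 168 bp of exon with DNAJC24 on the other strand, had 43 to 71 reads per library and a log2 fold change of -0.07 (limma adjusted p = 0.826).

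DPH5 (chromosome 1, 100989623 to 101026088), the methyltransferase, had a normalized count of 312, 294 and 365 in control and 348, 389 and 356 in low glucose, in order of depth. The ranges overlapped, and the log2 fold change was 0.17 (95% interval -0.05 to 0.40, limma adjusted p = 0.232). DPH5-DT, a noncoding transcript that shares 245 bp of exon with DPH5 on the other strand, rose from 57.1 to 106 on average (log2 fold change of 0.89, limma adjusted p = 0.00116), and reads of DPH5 and DPH5-DT could be mixed if strand was not used in counting.

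DPH7 (chromosome 9, 137554444 to 137578925), which prepares the chain for the last step, had a normalized count of 448, 369 and 487 in control and 509, 450 and 515 in low glucose, in order of depth. The low-glucose range reached above the controls and overlapped them, with a log2 fold change of 0.18 (95% interval -0.05 to 0.42, limma adjusted p = 0.225).

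EEF2 itself (ENSG00000167658.16, chromosome 19, 3976056 to 3985463) was highly abundant. Its normalized count was 49401, 61047 and 43464 in control and 57083, 55545 and 55566 in low glucose, in order of depth. The low-glucose values were close to each other and inside the control range, while the control library of 10126218 reads was above all others. The log2 fold change was 0.14 (95% interval -0.12 to 0.40, limma adjusted p = 0.418). Without that control library it was 0.27 and passed the test (limma adjusted p = 0.000692), so whether EEF2 passed turned on the library that stood apart from the other controls. DPH2, DPH5, DPH7 and DPH6 each had their lowest control value in the same library, and EEF2K and DNAJC24 their highest.

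EEF2K (chromosome 16, 22206278 to 22288738), the calcium- and calmodulin-dependent kinase of EEF2, had a normalized count of 389, 447 and 351 in control and 434, 382 and 401 in low glucose, in order of depth. The ranges overlapped fully, with a log2 fold change of 0.04 (95% interval -0.18 to 0.26, limma adjusted p = 0.810). It turned to -0.04 without the control library of 10190154 reads and to -0.01 without the low-glucose library of 10595408 reads.

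Levels were compared between genes per length, as TPM over all annotated exons of a gene. In control EEF2 was at 3847, far above the enzymes, of which DPH2 was at 81.4 and DPH7 at 26.6. DPH5 (16.4 ± 1.76), EEF2K (14.9 ± 1.82), DPH1 (14.7 ± 0.938), DPH3 (13.5 ± 2.0) and DPH6 (13.2 ± 1.75) followed within or close to their spreads (SD, n = 3), so that their order is not set, and DNAJC24 was lowest at 4.92. In low glucose DPH6 was lowest at 3.14, below DNAJC24 at 6.19. With the length of the reference transcript (MANE Select) instead, DPH6 was at 36.3 TPM in control, next to DPH7 at 35.2 and DPH5 at 34.1, and at 8.82 in low glucose, again the lowest of the 9 genes. The place of DPH6 among the enzymes in control thus depended on the length used, and its place in low glucose did not.

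DPH6 made up 7.09 to 8.11% of the summed TPM of the 7 enzymes in the control libraries and 1.86 to 2.12% in the low-glucose libraries over all annotated exons, and 16.5 to 18.4% and 4.54 to 5.23% with the MANE Select length. The other 6 enzymes together were at 158 ± 9.65 TPM in control and 155 ± 3.92 TPM in low glucose over all annotated exons (SD, n = 3). With the MANE Select length they were at 168 ± 6.63 and 172 ± 5.31 TPM (SD, n = 3), so the direction of this small difference depended on the length used. Per TPM of DPH6 there were 223 to 407 TPM of EEF2 under control conditions, and 1232 to 1384 in low glucose, over all annotated exons. With the MANE Select length these ratios were 63.8 to 116 and 352 to 395. These ratios contain the gene that was selected for its fall and are given as descriptions. RNA levels alone were compared, and neither the proteins nor the share of EEF2 that carries diphthamide was measured in these libraries.

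**Figure D2:**
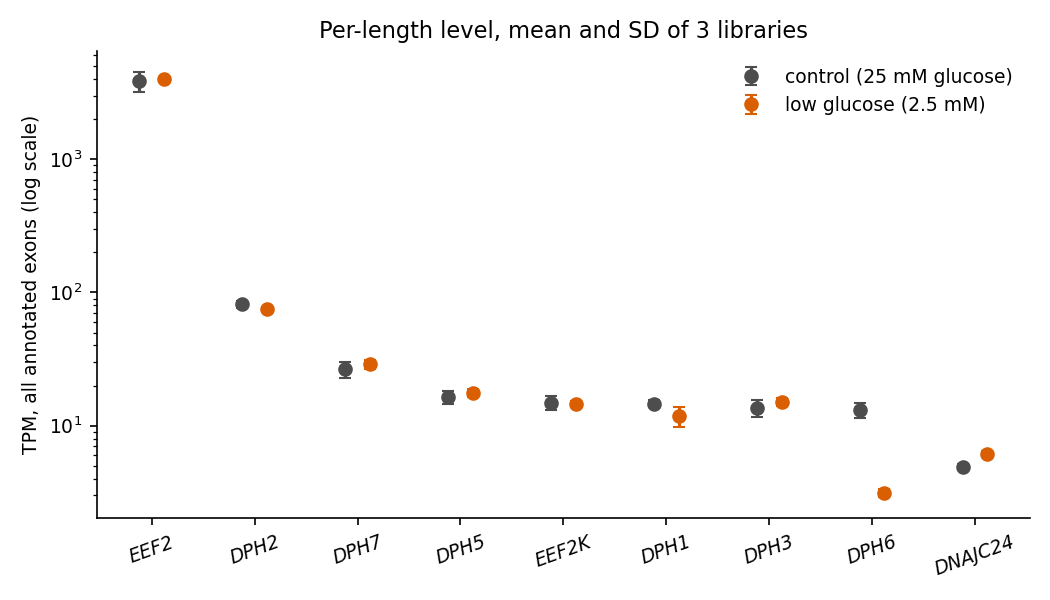
TPM of the 9 genes over all annotated exons, on a log scale, as the mean and SD of 3 libraries per condition, in order of the control level. DPH6 moves from 13.2 in control to 3.14 in low glucose and takes the lowest place, and EEF2 lies at 3847 in control.

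Genes that supply, regulate or resemble this pathway were read from the same limma fit. Of 68 such genes 67 were tested (EEF1G is listed at 0 in all libraries), and 28 passed, 6 higher and 22 lower, beside the 30.9% of all genes tested. Their share was 41.8% and their median log2 fold change -0.17.

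The 15 inputs to EEF2K and to the phosphatase of EEF2 held 1 higher and 7 lower gene calls. RPS6KA2, a ribosomal S6 kinase, rose from 33.3 ± 4.15 to 274 ± 13.3 (SD, n = 3; log2 fold change of 3.01, limma adjusted p = 1.27e-08). Of the same family, RPS6KA1 was lower (-0.32, limma adjusted p = 0.0260) and RPS6KA3 had a value of -0.17 (limma adjusted p = 0.141). The calmodulin genes CALM2 and CALM3 fell by 0.49 and 0.60 on the log2 scale, and CALM3 was the largest fall of the list (limma adjusted p = 2.02e-05). MTOR (-0.36, limma adjusted p = 0.00826, and 0.0506 and 0.0547 without the libraries of 10595408 and 13733477 reads), its substrate RPS6KB1 (-0.55) and the phosphatase subunits PPP2CA (-0.58) and PPP2R1A (-0.60) were also lower, while PRKAA1, a catalytic subunit of AMP-activated kinase, had a value of -0.18 (limma adjusted p = 0.121).

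Of the 8 other modifiers of elongation factors 1 was higher and 3 were lower. They include the pair that makes hypusine, another residue found in a single translation factor. DHPS, its initial enzyme, had a log2 fold change of 0.61 (limma adjusted p = 0.0405) and DOHH, its final enzyme, fell by 0.61 (limma adjusted p = 0.000125). DHPS rested on 30 to 49 reads per control library, and its call was lost without the library of 10595408, 10841656, 13733477 or 9741183 reads (limma adjusted p of 0.0977 to 0.139). EIF5A, the factor that carries hypusine, fell from 16429 ± 2055 to 8865 ± 416 (SD, n = 3; log2 fold change of -0.88, limma adjusted p = 9.22e-06). EEF2KMT, which methylates EEF2, had a value of -0.14 (limma adjusted p = 0.256).

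Among the other 7 elongation factors tested 1 was higher and 3 were lower, EIF5A among them. EEF1B2, an exchange factor subunit, had a log2 fold change of 0.35 (limma adjusted p = 0.0133), with an adjusted p of 0.0615 to 0.0836 without any 1 of the low-glucose libraries of 10595408, 10841656 or 13733477 reads. Of 4 GTPases related to EEF2, the splicing factor EFTUD2 (-0.58, limma adjusted p = 0.000136) and the mitochondrial elongation factor GFM1 (-0.38, limma adjusted p = 0.00264) were lower. The 12 Elongator and wobble uridine genes include those of the Elongator complex, which shares DPH3 with this pathway. None of the 12 passed limma, edgeR or DESeq2 (4 at an unadjusted limma p under 0.05, all lower), and their values ran from -0.30 to 0.13.

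The cofactor lists were mixed. Of 9 cytosolic iron-sulfur assembly genes 3 were lower, led by the reductase NDOR1 (-0.45, limma adjusted p = 0.00103). In the supply of S-adenosylmethionine, which feeds DPH1, DPH2 and DPH5, the synthetase MAT2A had a log2 fold change of 0.51 (limma adjusted p = 0.00671, and 0.0598 without the library of 13733477 reads) and AHCY of -0.28 (limma adjusted p = 0.0141, and 0.0844 and 0.0968 without the libraries of 10595408 and 10841656 reads). Of 6 other ATP-dependent enzymes that form an amide or amine, as DPH6 does, 2 were higher and 3 lower. Asparagine synthetase ASNS rose by 1.09 (limma adjusted p = 0.000120), NADSYN1 by 0.72, and CTPS1 fell by 0.41 (limma adjusted p = 0.000940). Of HBEGF, the receptor of diphtheria toxin, and CD9 and FURIN, which aid its entry, 0 passed limma, edgeR or DESeq2 (1 at an unadjusted limma p under 0.05), and HBEGF had a value of 0.02 (limma adjusted p = 0.910), which turned to -0.04 after quantile normalization.

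**Figure D3:**
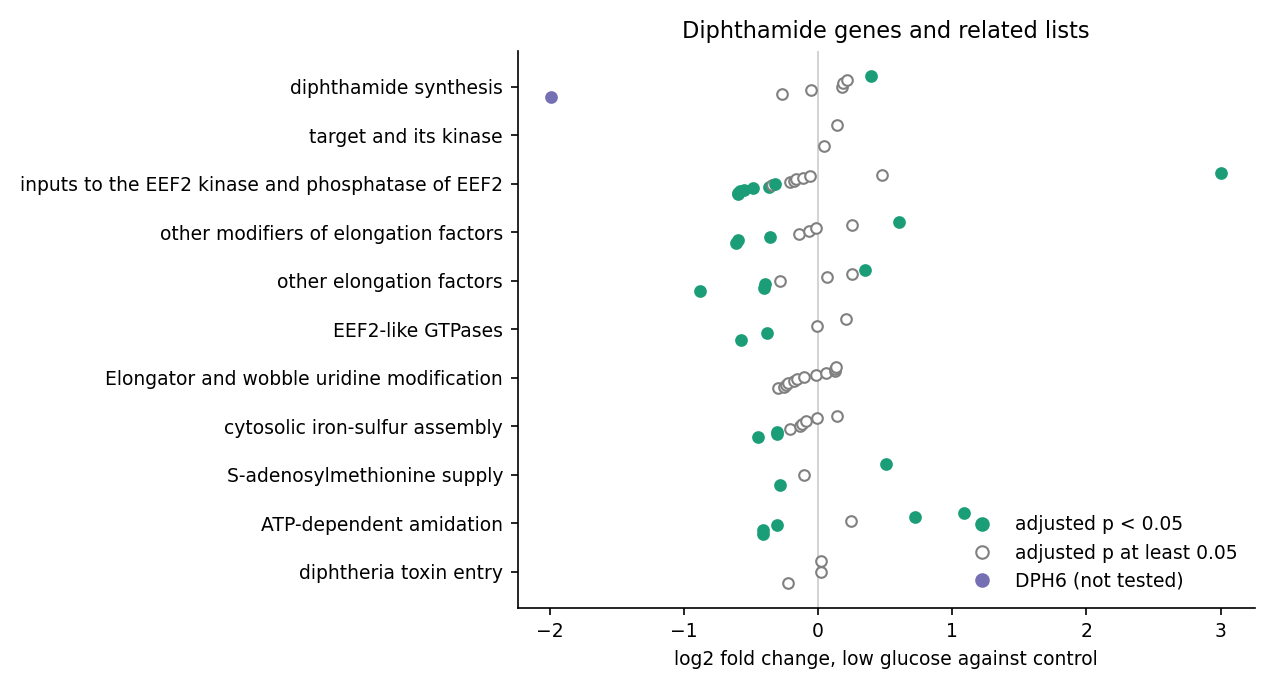
Log2 fold change of low glucose against control for each tested gene, 1 row per list. Filled green points passed limma, open points did not, and the purple point is DPH6, which has no test. DPH6 lies at -1.99, apart from the other enzymes, which run from -0.27 to 0.39, and RPS6KA2 lies at 3.01.

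The start of DPH6 is shown because DPH6 is the gene selected for its fall. The 4.02-fold lower level is that of all reads on the gene, and the use of this start was not measured. The window runs from 250 bases before to 50 after the start given by RefSeq (hg38, chr15:35546116-35546415, minus strand), and the single capital marks the base of the start.
DPH6 promoter: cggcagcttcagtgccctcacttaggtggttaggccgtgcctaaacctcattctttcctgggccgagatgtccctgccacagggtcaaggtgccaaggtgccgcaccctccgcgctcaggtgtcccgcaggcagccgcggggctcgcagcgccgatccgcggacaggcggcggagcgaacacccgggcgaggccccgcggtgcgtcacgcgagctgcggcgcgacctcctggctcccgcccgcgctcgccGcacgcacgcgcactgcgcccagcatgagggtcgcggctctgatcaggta
It is GC-rich (71.3%) and holds 38 CpG pairs, where the median of 35116 RefSeq windows of this length was 58.7% and 14. Windows were found for 8 of the 9 genes, and DNAJC24 had none. Those of the genes other than DPH6 were also above both medians, at 60.7 to 73.7% GC and 20 to 41 CpG pairs. Of the motifs searched on both strands, the E-box CACGTG was in the windows of DPH2 and EEF2K (7.26% of all windows), the cAMP response element TGACGTCA in that of EEF2 (1.85%), the ETS motif CCGGAAGT in that of DPH2 (4.14%), and the ATF4 element TGATGNAAN in none (3.61%). The DPH6 window held none of these motifs. The element of EEF2 begins 13 bases before its start (chr19:3985449-3985496, minus strand, element in capitals) and is shown as the match nearest to the gene that carries diphthamide.
EEF2 start: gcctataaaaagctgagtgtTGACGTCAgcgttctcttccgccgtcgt

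The 169 genes of 300 to 400 kb with a mean of at least 20, the span of DPH6, had a median log2 fold change of -0.07. Within 1 Mb of DPH6 the annotation has 51 other rows, of which 21 were tested, with 3 higher, 3 lower and 15 that did not pass, a share close to the 14.7% higher and 16.2% lower of all genes tested. MIR3942, counted as lower, and RBM17P4, which did not pass, lie within introns of DPH6 on its strand. Their reads could not be told apart from intron RNA of DPH6, so these counts are not fully separate from the selected gene. DPH6-DT, a noncoding transcript that shares 40 bp of exon with DPH6 on the other strand, was seen in 6 to 14 reads of the control and 7 to 9 of the low-glucose libraries (log2 fold change of -0.55, limma adjusted p = 0.352). The 6 rows that lie wholly within introns of DPH6 held 10, 12 and 7 reads in the control libraries and 5, 2 and 2 in the low-glucose libraries, in order of depth. MIR3942, a microRNA gene in an intron of DPH6, passed limma on 3 to 7 reads per control and 0 to 2 per low-glucose library (adjusted p = 0.0307), and lost the call without the library of 10126218, 10841656, 13733477 or 9741183 reads.

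Further away, AQR, a splicing helicase, fell by 0.49 (limma adjusted p = 0.00259), and its neighbor ZNF770 had a value of 0.26 (limma adjusted p = 0.0501), just outside the threshold. ZNF770 passed without the control library of 10126218 (0.00914) or 9741183 reads (0.0473), and with TMM (0.0388), library size scaling (0.0124), quantile normalization (0.00435), a mean of at least 10 (0.0427) or edgeR (0.0293). ENSG00000259737, on the far side of DPH6, fell from 10 to 25 reads to 2 to 8 (log2 fold change of -1.71, limma adjusted p = 0.0153), a call lost without the library of 10595408 (0.0789) or 9741183 reads (0.0909). GOLGA8A and GOLGA8B rose by 1.11 and 1.20, but these near-identical copies can split each other's reads and their values are uncertain. EMC4 (0.08), NOP10 (0.07), LPCAT4 (0.23) and ENSG00000279364 (0.23) did not pass, and the remaining 9 that did not pass (ENSG00000259468, NUTM1, ACTG1P15, HNRNPLP2, ACTC1, ENSG00000259665, ENSG00000259397, PRELID1P4 and RBM17P4) had at most 15 reads in any library.

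**Figure D4:**
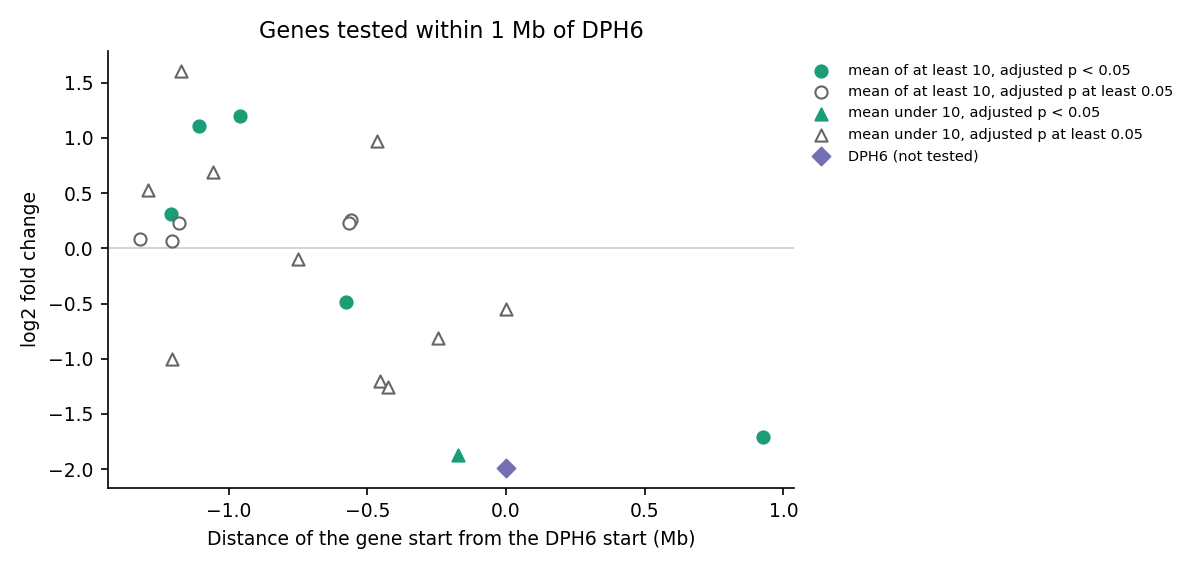
Log2 fold change of the 21 genes tested within 1 Mb of DPH6 against the distance of their start from that of DPH6. Circles have a mean of at least 10 and triangles a lower one, green marks genes that passed limma, and DPH6 is the diamond at -1.99. Calls in both directions lie on the left side, and the right side holds 1 tested gene apart from DPH6-DT near 0.

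The genes whose profile over the 6 libraries was nearest to that of DPH6, among 10148 other genes with a mean of at least 100, were BRINP3, CAVIN2, SCG2, RGS5 and E2F2. The measure was the root mean square difference of the centred log2 values, and it was 0.0836 for BRINP3, 0.209 for CAVIN2, 0.224 for SCG2, 0.230 for RGS5 and 0.238 for E2F2. BRINP3 had normalized counts of 405 to 472 in control libraries, against 103 to 129 after low glucose, close to those of DPH6. It shared with DPH6 the lowest control value in the library of 10126218 reads and the lowest low-glucose value in that of 10841656 reads. E2F2, a transcription factor of the cell cycle, ran from 173 to 211 under control conditions and from 56.3 to 63.6 in low glucose. None of the 5 belongs to the diphthamide pathway, and a profile over 2 conditions mainly orders genes by the size of their fall.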

How the data were processed

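Strand-specific RNA-seq libraries of MiaPaCa-2 cells were mapped by the authors to hg38 with STAR (2.7.0e, per the labels). RSEM is in the study's software list, but the sources used here do not say whether it made this table, with which strand setting or with which annotation. The deposited values are a signal: read counts per gene that the authors scaled with 1 size factor per library. Divided by the value of 1 read, 100% of them came out whole in each library (tolerance 0.001), so reads were recovered. Of 60668 identifiers 99.4% matched Gencode v44.

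The columns of 4 libraries were assigned to a condition by their runs of 3 names. The labels' treatment text says 2.5 mM throughout, but the series design says 25 mM for control. Differences were tested with limma 3.58.1 on log2(value + 1), as lmFit and eBayes with a variance trend. The alternatives, including edgeR 4.0.16 and DESeq2 1.42.0 on the recovered reads, are in the closing section. TPM with the MANE Select length was added after seeing the data. On simulated data (low glucose against control, 21133 genes tested) limma recovered 36 of 67 genes changed 1.5-fold, 62 of 67 changed 2-fold and 66 of 66 changed 4-fold, with 5 false among 169 calls. The simulation used the same dispersion for all genes, changed only the more abundant genes and held no library that stood apart. Its figures may thus be better than those of the real libraries. The genes, lists and motifs were chosen with earlier results of these data known. The genes named were the 9 genes, the largest called rise and fall of each list, exon overlaps, processed copies, tested genes within 1 Mb of DPH6 and the 5 nearest profiles. CALM2, MTOR, RPS6KB1, PPP2CA, PPP2R1A, PRKAA1, EEF2KMT, GFM1, NADSYN1, HBEGF, CD9 and FURIN, and the genes next to DPH6 in size of fall, were named after their values were seen. So were RPS6KA1 and RPS6KA3, whose values under the other settings are not given here. The 3 libraries per condition limit the precision, and the study describes them as biological replicates. A result for 1 gene chosen by this rule is not reported here.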

Additional observations from a re-analysis of the deposited data

How the results depend on the processing

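No paired analysis was possible because replicate numbers are known for only 2 of the 6 columns. The 15 settings left DPH6 between -2.10 and -1.91. Those that changed only the filter or the variance trend could not move a limma log2 fold change. All genes past the threshold numbered 6528 (3111 higher, 3417 lower), 4090 without a variance trend, and 4298 (without the library of 10841656 reads) to 7173 with a library left out. The split was 3930 higher and 2645 lower when scaled by library size. Of the 8 genes tested beside DPH6, 1 passed, 0 with DESeq2 or quantile normalization, and 0 to 2 with a library left out. The 28 related genes became 18 without a variance trend.

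DNAJC24 had a log2 fold change of 0.39 with DESeq2 and 0.32 after quantile normalization, and 0.35 to 0.44 with a library left out. The same range was -0.39 to -0.17 for DPH1, 0.030 to 0.27 for EEF2, and -0.042 to 0.13 for EEF2K. DPH2 turned to 0.028 (library size) and 0.066 (quantile). Some genes near or overlapping the 9, none of which passed limma, also changed sign. ACTC1 turned to 0.76 with a pseudocount of 0.1. With scaling by library size, ENSG00000261113 turned to 0.0037, ENSG00000285649 to 0.011, ENSG00000287553 to 0.065 (0.0035 with DESeq2, 0.027 with edgeR) and IMMP1L to 0.0057. With a library left out, ACTC1 ran from -0.79 to 1.28, EMC4 from -0.0047 to 0.19, NOP10 from -0.073 to 0.18, IMMP1L from -0.25 to 0.018, ENSG00000261113 from -0.40 to 0.16 and ENSG00000287553 from -0.11 to 0.14. HBEGF turned to -0.040 (quantile) and ran from -0.034 to 0.10. Without a variance trend AHCY, DHPS, EEF1B2, MAT2A, MTOR, AQR, ENSG00000259737 and MIR3942 no longer passed. Quantile normalization also removed AHCY, DHPS and MTOR, library size scaling AHCY, DESeq2 DHPS, no filter DHPS, and a pseudocount of 0.1 MIR3942 (DESeq2 gave MIR3942 no adjusted p). Calls were gained for ZNF770 as described, for LPCAT4 with library size scaling, for ENSG00000259397 with quantile normalization, for ACTG1P15 with no filter, and for ACTG1P15, HNRNPLP2 and RBM17P4 without a variance trend. The causes were not tested. With 3 libraries per condition a 1.5-fold change can be missed.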
